A study of Mus musculus with 36 samples.

Results

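The genes described here are 30 genes that mark the projection neurons of the striatum, and 29 of them were measured. Each was taken as the transcript cluster, the set of probes for one gene on the array, whose annotation gives that gene as its only symbol. Every measured gene had 1 such cluster among 65956 clusters tested, and *Adora2a*, the adenosine receptor of indirect-pathway neurons, had none and is not analysed here. The list was selected on the amygdala difference in signal intensity between diazepam (DZP) and vehicle in these same mice, so the amygdala treatment difference is given below as a description and was not tested. Male C57BL/6 mice, 8 weeks old, were injected intraperitoneally at hours 8 and 18 for 10 days with DZP, a benzodiazepine that enhances GABA type A receptor currents, or with the lipid emulsion Intralipid alone (Ctrl). The labels give DZP as 5 mg/ml, whereas the methods state a dose per body weight and a different evening hour. Mice of both treatments were anesthetized with medetomidine, midazolam and butorphanol and then perfused. Tissue punches were taken from slices of the cortex, hippocampus and amygdala. The total RNA of each was hybridized to an Affymetrix Mouse Transcriptome Array 1.0, giving 3 arrays in each of 6 groups. The 3 mice of a treatment supplied all regions, the labels do not say which arrays share a mouse, and the striatum itself was not sampled. Of the 29 genes, 21 had a mean at or above that of the median cluster, which was 5.95 on the log2 scale.

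Striatal projection neurons, also called medium spiny neurons, are the GABA-releasing output cells of the caudate, putamen and accumbens. Those of the direct pathway carry the D1 dopamine receptor, which raises cyclic AMP through the G protein subunit Golf and adenylyl cyclase 5, and those of the indirect pathway carry the D2 receptor, which lowers it, together with an adenosine receptor. Phosphodiesterases and the phosphatase inhibitor DARPP-32 shape the same signal, and FOXP1, MEIS2, ISL1, SIX3 and the retinoid receptors act in the development or identity of these cells. In the amygdala, the central nucleus and the intercalated cell groups are also made of GABA neurons, and the tail of the striatum adjoins them.

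Of the 18 arrays, 5 stood apart: *Ttr*, the transthyretin gene of the choroid plexus, was between 12.97 and 16.43 (log2) on Ctrl hippocampus replicates 2 and 3, DZP hippocampus replicates 1 and 2 and Ctrl amygdala replicate 3, and between 6.38 and 8.19 on the other 13. The main counts between regions and some other results that rest on these arrays are therefore given with and without them. The others are given only with them. Region markers followed the labels in Ctrl mice (limma, adjusted p below 0.05). Here 7 of 7 measured hippocampal-field genes were higher in hippocampus than cortex, against 8.13% of all clusters. In amygdala 7 of 8 cortical excitatory neuron genes were lower than in cortex, against 6.65%. Of the central amygdala markers, 5 of 6 were higher in amygdala than cortex, against 8.87%. Arrays of 1 group correlated at 0.993 or above.

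The stretches before the transcription start of 5 genes are shown because these genes carry the results that follow: the 2 dopamine receptors, the receptor gene *Gpr6*, the retinoid receptor gene *Rarb*, and *Pde10a*, for which probe sets of 1 gene behaved in opposite ways and 2 starts are listed. Each run holds the 250 bases before the start, 5′ to 3′, from RefSeq on build GRCm38.p6, and 20 of the 30 genes had such an entry. Capitals mark matches on either strand to TGACGTCA (the cyclic AMP response element), to the half-site of retinoid receptors (AGGTCA, with AGTTCA and GGTTCA counted too), to TGACAG (MEIS factors) or to TGTTTA (forkhead factors).
Drd1 (chr13:54055659-54055908, - strand): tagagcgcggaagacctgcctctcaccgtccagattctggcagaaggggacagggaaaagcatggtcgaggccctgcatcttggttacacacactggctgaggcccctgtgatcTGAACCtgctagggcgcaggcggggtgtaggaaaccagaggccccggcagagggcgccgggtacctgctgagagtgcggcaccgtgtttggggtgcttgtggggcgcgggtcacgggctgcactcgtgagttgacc
Drd2 (chr9:49340153-49340402, + strand): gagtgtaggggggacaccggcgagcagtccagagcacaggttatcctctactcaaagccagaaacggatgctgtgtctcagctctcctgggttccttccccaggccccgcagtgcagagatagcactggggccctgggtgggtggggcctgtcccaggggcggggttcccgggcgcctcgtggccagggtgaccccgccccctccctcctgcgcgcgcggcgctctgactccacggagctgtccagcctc
Gpr6 (chr10:41072291-41072540, - strand): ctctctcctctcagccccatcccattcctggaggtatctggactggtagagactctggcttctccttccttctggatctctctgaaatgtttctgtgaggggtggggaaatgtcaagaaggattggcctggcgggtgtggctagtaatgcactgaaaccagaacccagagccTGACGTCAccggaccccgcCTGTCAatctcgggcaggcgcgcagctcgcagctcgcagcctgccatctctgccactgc
Rarb (chr14:16575477-16575726, - strand): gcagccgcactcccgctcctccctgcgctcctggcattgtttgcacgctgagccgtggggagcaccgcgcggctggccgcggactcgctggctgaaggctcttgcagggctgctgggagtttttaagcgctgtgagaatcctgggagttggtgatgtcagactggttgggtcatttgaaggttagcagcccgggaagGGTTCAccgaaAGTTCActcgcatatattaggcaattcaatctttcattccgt
Pde10a, first start (chr17:8801495-8801744, + strand): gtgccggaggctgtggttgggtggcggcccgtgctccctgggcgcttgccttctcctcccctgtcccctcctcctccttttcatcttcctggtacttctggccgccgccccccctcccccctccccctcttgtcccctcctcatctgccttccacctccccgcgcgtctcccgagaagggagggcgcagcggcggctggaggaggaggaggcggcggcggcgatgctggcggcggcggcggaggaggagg
Pde10a, second start (chr17:8849735-8849984, + strand): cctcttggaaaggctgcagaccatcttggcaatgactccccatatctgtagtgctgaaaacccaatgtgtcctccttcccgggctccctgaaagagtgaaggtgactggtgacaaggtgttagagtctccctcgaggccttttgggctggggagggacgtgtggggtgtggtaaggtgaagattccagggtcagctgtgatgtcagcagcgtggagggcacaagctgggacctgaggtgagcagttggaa

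In *Gpr6*, the cyclic AMP response element began 78 bases before the start. The motif was found in 1.55% of all 32851 promoter entries and in 1 of the 29 entries of these genes. *Rarb* held GGTTCA followed after 5 bases by AGTTCA, a direct repeat of the half-site beginning 53 bases before the start, and 0.00609% of all entries held that repeat. That search was set after the sequences were seen and covered only this pair of half-sites. The share is therefore no measure of how rare such repeats are. A half-site stood in 6 of the 29 entries, against 30.7% of all entries. The MEIS motif stood in 7 of them, from 5 genes, against 15.9%, and the forkhead motif in 4, from 2 genes, against 12%. *Drd2* and both starts of *Pde10a* had no match in this window. These matches are descriptions of letters.

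The first comparison asked where these genes were expressed in vehicle-treated mice. The mean over the 29 genes was 7.46 ± 0.04 in Ctrl cortex, 7.29 ± 0.01 in Ctrl hippocampus and 8.42 ± 0.32 in Ctrl amygdala (log2 signal intensity, SD, n = 3). The amygdala mean lay above both others and varied more between arrays. In Ctrl amygdala 20 genes were higher and 2 were lower than in Ctrl cortex (limma, adjusted p below 0.05), against 8.87% and 6.65% of all clusters. Compared with Ctrl hippocampus, 20 were again higher and 2 lower, against 5.77% and 4.57% of clusters. The median difference over the 29 genes was 0.89 from cortex and 0.89 from hippocampus, and over all clusters it was 0.03 and 0.00. The Ctrl amygdala arrays belong to the comparison in view of which the list was drawn up, and both region comparisons share them. Without the 5 arrays with choroid plexus transcripts, which left 2 Ctrl amygdala arrays and 1 Ctrl hippocampus array whose spread was taken from the other groups, 19 genes were higher and 1 was lower than in cortex, and 16 were higher and 0 were lower than in hippocampus.

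**Figure D1:**
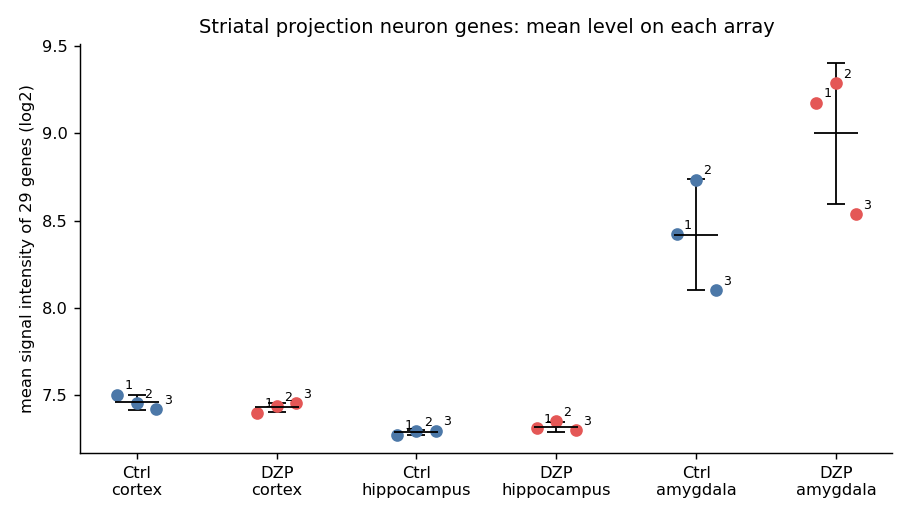
Mean signal intensity (log2) of the 29 measured genes on each of the 18 arrays; points are arrays numbered by replicate, horizontal lines group means and bars SD (n = 3). Cortex and hippocampus arrays lay between 7.27 and 7.50, and amygdala arrays between 8.10 and 9.29.

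Among the receptors, all 5 measured genes were higher in Ctrl amygdala than in both other regions. *Drd2* (cluster TC0900000593.mm.1), the D2 receptor, was 5.49, 5.34 and 5.51 in Ctrl cortex replicates 1 to 3, 5.82, 5.89 and 5.72 in hippocampus, and 10.45, 10.70 and 8.82 in amygdala. No amygdala array overlapped another region, and the difference from cortex was 4.54 ± 0.44 on the log2 scale (SE), or 23.3-fold (adjusted p = 1.33e-06). The 23 background control probe sets, which have no target, had means over the arrays between 2.90 and 6.48 (median 3.67), and 3 of them exceeded the Ctrl cortex mean of *Drd2*, so whether *Drd2* lay above background in cortex is not settled and the fold depends on that level. Of the 29 genes, 12 had a Ctrl cortex mean below the highest background control. These were *Drd2*, *Gpr149*, *Syndig1l*, *Six3*, *Isl1*, *Rxrg*, *Lrrc10b*, *Serpina9*, *Ido1*, *Cd4*, *Sh3rf2* and *Slc35d3*. For all of them, folds and differences from cortex depend on the background level in the same way. *Drd1* (TC1300002024.mm.1), the D1 receptor, was 7.67, 7.45 and 7.27 in cortex, 7.18, 7.29 and 7.29 in hippocampus, and 8.76, 9.17 and 8.17 in amygdala, again without overlap. Its difference from cortex was 1.24 ± 0.18, or 2.36-fold (adjusted p = 0.000105). *Gpr52*, a receptor that couples to stimulatory G proteins, was between 10.88 and 11.20 in amygdala, and was 5.63-fold higher there than in cortex and 9.06-fold higher than in hippocampus (adjusted p = 3.26e-07 and 6.82e-08). *Gpr6*, a receptor active without a known ligand, and the orphan receptor *Gpr149* differed less, by 0.58 and 0.93 from cortex (adjusted p = 0.0206 and 6.14e-05). The *Gpr6* call against cortex was lost without Ctrl amygdala replicate 2 (difference 0.42, adjusted p = 0.105), without Ctrl cortex replicate 3 (0.50, adjusted p = 0.0935) and in the fit to the groups compared (adjusted p = 0.0612). The call against hippocampus was lost without Ctrl amygdala replicate 2 (0.49, adjusted p = 0.0761), without Ctrl hippocampus replicate 1 (0.60, adjusted p = 0.0639) and without the 5 arrays with choroid plexus transcripts (0.88, adjusted p = 0.0917).

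Of the 8 genes of G protein, cyclic nucleotide and phosphatase signaling, 5 were higher in Ctrl amygdala than in cortex and 7 were higher than in hippocampus. *Rgs9*, which speeds the shutoff of G proteins, was between 7.04 and 7.09 in Ctrl cortex and 9.49, 10.41 and 8.92 in Ctrl amygdala, a 5.83-fold difference (adjusted p = 7.67e-05). *Adcy5*, the main adenylyl cyclase of the striatum, was between 9.69 and 9.88 in cortex and 11.90, 12.27 and 11.44 in amygdala, a 4.26-fold difference (adjusted p = 7.61e-07). For both genes every Ctrl amygdala array lay above every cortex and hippocampus array. *Gnal*, which encodes Golf, differed by 0.97 from cortex, *Pde1b*, a calmodulin-dependent phosphodiesterase, by 1.24, and *Ppp1r1b*, which encodes DARPP-32, by 1.06 (adjusted p = 0.00114, 0.000963 and 0.00458). *Pde10a*, a phosphodiesterase of cyclic AMP and cyclic GMP, differed by 0.89 ± 0.34 from cortex (adjusted p = 0.0946) and by 1.13 ± 0.34 from hippocampus (adjusted p = 0.0449), and the second call was lost in 15 of 26 alternatives, among them the omission of any single Ctrl hippocampus array. *Pde7b*, which degrades cyclic AMP, had its lowest level in hippocampus: it was between 12.35 and 12.38 in Ctrl cortex, between 10.17 and 10.32 in hippocampus, and 12.30, 12.24 and 11.34 in amygdala. *Rasd2*, the small GTPase Rhes, did not pass in either comparison (differences 0.15 and 0.64, adjusted p = 0.734 and 0.0648).

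The channel and cytoskeletal genes did not share 1 pattern. *Scn4b* (TC0900000535.mm.1), the sodium channel subunit beta 4, was 8.89, 9.06 and 9.11 in Ctrl cortex, 6.58, 6.66 and 6.75 in hippocampus, and 7.24, 8.24 and 6.45 in amygdala. It was thus highest in cortex, 3.27-fold lower in amygdala (adjusted p = 0.00502) and 5.13-fold lower in hippocampus (adjusted p = 0.000349), and amygdala and hippocampus overlapped. Without the 5 arrays with choroid plexus transcripts the amygdala difference was -1.28 (adjusted p = 0.0769). *Kcnab1*, a potassium channel beta subunit, was highest in hippocampus, 2.09-fold above cortex (adjusted p = 2.01e-05), with amygdala between them. *Actn2*, the actin-crosslinking alpha-actinin 2, was 2.57-fold higher in amygdala than in cortex (adjusted p = 1.42e-05), and *Syndig1l*, a transmembrane protein enriched in the caudate, 1.65-fold (adjusted p = 0.00376).

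Of the 6 transcription factor and nuclear receptor genes, 5 were higher in Ctrl amygdala than in cortex and *Foxp1* was lower. *Rxrg*, a retinoid X receptor, was 5.98, 5.86 and 5.85 in cortex, 5.83, 6.12 and 6.22 in hippocampus, and 8.84, 8.87 and 8.20 in amygdala, 6.68-fold above cortex (adjusted p = 3.25e-09). *Meis2*, a homeobox factor of striatal progenitors, was between 9.41 and 9.49 in cortex, between 8.37 and 9.03 in hippocampus, and 11.25, 11.36 and 10.79 in amygdala (3.19-fold above cortex, adjusted p = 1.01e-06). *Foxp1*, a forkhead repressor that cortical neurons also use, was between 9.83 and 9.97 in cortex, between 9.06 and 9.11 in hippocampus, and 8.93, 8.98 and 8.72 in amygdala (2.04-fold below cortex, adjusted p = 3.74e-06). The regions did not overlap for any of these 3 genes, apart from the pair of cortex and hippocampus for *Rxrg*. *Rarb*, the retinoic acid receptor beta, *Six3*, which acts in indirect-pathway neurons, and *Isl1*, which acts in direct-pathway neurons, were 1.82-, 1.86- and 1.56-fold above cortex (adjusted p = 0.00159, 1.27e-06 and 0.000698). The *Isl1* call was lost in 1 of 25 alternatives, with the replicate number as a block (adjusted p = 0.0606).

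Of the 6 remaining genes, *Sh3rf2*, a ubiquitin ligase, and *Slc35d3*, which acts on the traffic of the D1 receptor in mice, were higher in amygdala than in both other regions (differences from cortex 0.86 and 0.90, adjusted p = 0.000275 and 0.000902), though the call of *Slc35d3* against hippocampus was lost in 6 of 25 alternatives. *Lrrc10b*, a leucine-rich repeat protein gene, was highest in hippocampus, where it was between 6.90 and 7.31 against 5.77 to 5.87 in cortex (2.37-fold, adjusted p = 0.000708). Its lower level in amygdala than in hippocampus (difference -0.74, adjusted p = 0.0416) was lost in 16 of 26 alternatives. *Serpina9*, a serine protease inhibitor, *Ido1*, a tryptophan-degrading enzyme, and *Cd4*, the T-cell coreceptor, passed in no comparison of regions, with differences between amygdala and cortex of 0.24, 0.03 and 0.31. These 3 genes had low levels, with means over the 18 arrays of 4.59, 4.67 and 4.98.

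**Figure D2:**
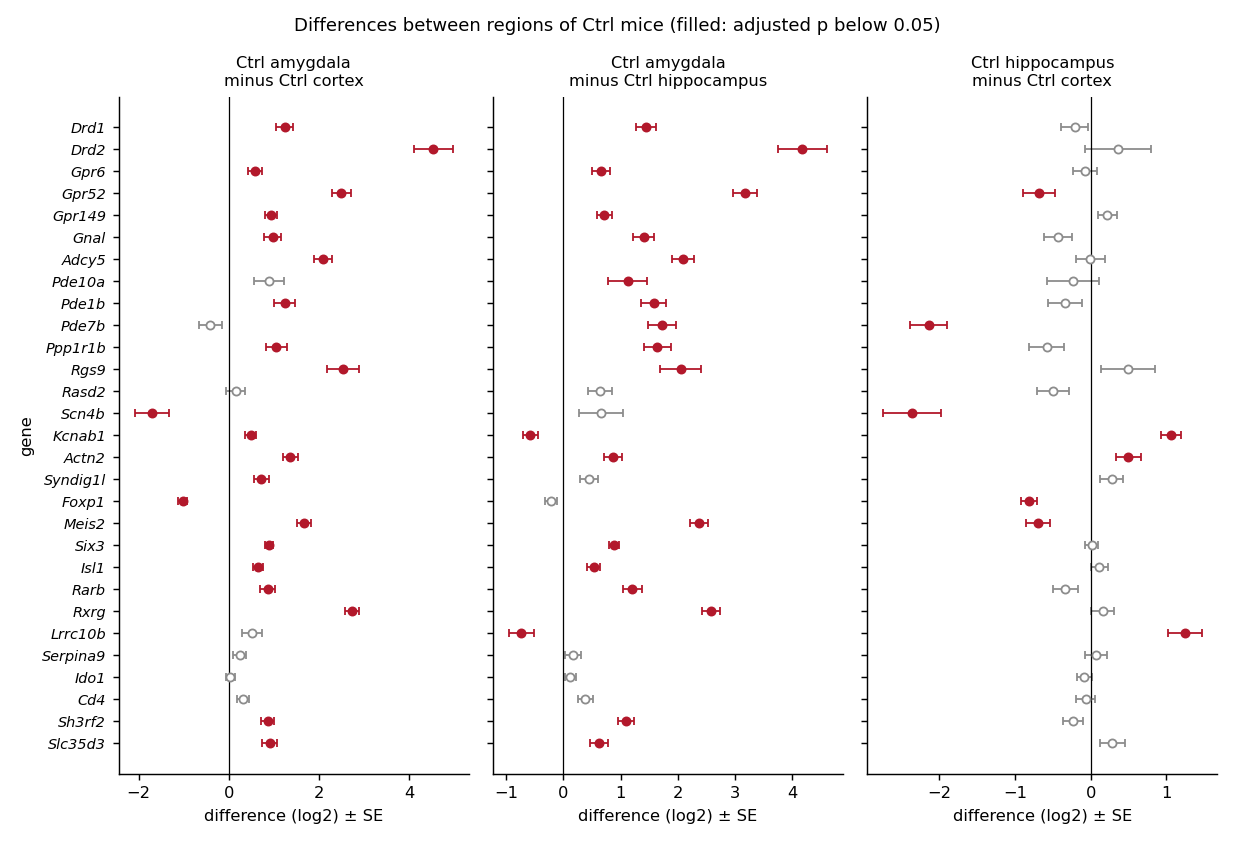
Differences between regions of Ctrl mice for each of the 29 genes (log2, ± SE, from the fit over all clusters; filled symbols have an adjusted p below 0.05). *Drd2* lay farthest to the right in both amygdala panels, and *Scn4b* and *Pde7b* farthest to the left between hippocampus and cortex.

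Hippocampus and cortex of Ctrl mice, compared without any amygdala array, differed for 8 genes. The 3 higher in hippocampus were *Kcnab1*, *Lrrc10b* and *Actn2*, against 8.13% of clusters. The 5 that were lower were *Scn4b*, *Pde7b*, *Foxp1*, *Meis2* and *Gpr52*, against 6.89% of clusters. *Actn2* (difference 0.50, adjusted p = 0.0498) and *Gpr52* (difference -0.68, adjusted p = 0.0378) lay near the threshold, and their calls were lost in 17 and 9 of 26 alternatives. Without the 5 arrays with choroid plexus transcripts, 2 genes were higher and 4 were lower.

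The other markers of striatal projection neurons, 20 genes outside the list of which 19 were measured, were compared in the same way. In Ctrl amygdala 11 of the 19 were higher than in cortex and 1 was lower, against 8.87% and 6.65% of all clusters. Compared with hippocampus, 12 were higher and 2 lower, against 5.77% and 4.57%. The 2 lower than in hippocampus were *Bcl11b* and *Eya1* (differences -0.44 and -0.98). *Penk*, which encodes the enkephalin precursor of indirect-pathway neurons, differed from cortex by 3.94, and *Tac1*, which encodes the substance P precursor of direct-pathway neurons, by 2.20 (adjusted p = 1.18e-08 and 2.18e-06). *Arpp21*, a cyclic AMP-regulated phosphoprotein gene that cortex also expresses, was the gene lower than in cortex (difference -0.65, adjusted p = 0.00103). In a punch of tissue, fewer cells of a type and less RNA per cell cannot be told apart.

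The second comparison asked whether DZP changed these genes in cortex and hippocampus. In cortex, 0 of the 29 genes passed (limma), against 0.00606% of clusters higher and 0.0303% lower, and 1 had an unadjusted p below 0.05, against 7.83% of clusters. In hippocampus 0 passed, against 0.00758% and 0.0652%, and 0 had an unadjusted p below 0.05, against 11.2%. Without the 5 arrays with choroid plexus transcripts, all cortex arrays were kept and the cortex count was again 0. Hippocampus then kept 1 array in each group, so that fit cannot decide whether DZP changed these genes there. The mean over the 29 genes was 7.43 ± 0.03 in DZP cortex and 7.32 ± 0.03 in DZP hippocampus, and the median difference was 0.01 in cortex and 0.03 in hippocampus. The DZP effect did not pass as different between the 2 regions for any gene (0 of 29, against 0.00303% and 0.00152% of clusters, with 0 at an unadjusted p below 0.05, against 8.96%).

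The cortical gene with the unadjusted p below 0.05 was *Pde10a* (TC1700000092.mm.1). It was 10.08, 10.27 and 10.19 in Ctrl cortex and 9.30, 9.77 and 9.11 in DZP cortex, so that every DZP array lay below every Ctrl array. The difference was -0.79 ± 0.34 (1.73-fold lower, adjusted p = 0.595). The criteria of the study's methods, an unadjusted p below 0.05 in a test of these 6 arrays with a fold change of at least 1.5, selected this gene and 0 others of the list in cortex, against 0.453% of clusters, and 0 in hippocampus, against 1.2%. In hippocampus *Pde10a* was 9.94, 9.88 and 10.03 in Ctrl and 9.72, 9.73 and 9.54 in DZP (difference -0.29, adjusted p = 0.823). Groups did not overlap for 3 genes higher (*Rgs9*, *Rasd2* and *Meis2*) and 4 lower (*Pde10a*, *Pde7b*, *Kcnab1* and *Sh3rf2*) with DZP in cortex, against 7.22% and 7.34% of clusters, and for 5 higher and 3 lower in hippocampus, against 6.45% and 9.69%. Those in hippocampus were *Drd1*, *Drd2*, *Adcy5*, *Pde1b* and *Foxp1* above, by 0.10 to 0.28, and *Gpr6*, *Pde10a* and *Isl1* below, by 0.08 to 0.30.

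In the amygdala, 28 of the 29 genes had a higher mean with DZP than with vehicle. This is the contrast in view of which the list was made, and what follows is description without a test. The mean over the genes was 8.42, 8.74 and 8.10 in Ctrl replicates 1 to 3 and 9.18, 9.29 and 8.54 in DZP replicates 1 to 3. Ctrl replicate 2 lay above DZP replicate 3, so the groups overlapped, and the difference of group means was 0.58. Over the 29 genes the median difference was 0.49, from -0.07 to 1.66, and over all clusters it was 0.03. The groups did not overlap for 4 genes above and 0 below, against 8.16% and 4.91% of clusters.

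The 4 genes without overlap were *Drd1*, *Gpr6*, *Six3* and *Ido1*. *Drd1* was 9.70, 9.65 and 9.55 in DZP amygdala against the 8.76, 9.17 and 8.17 given above, 1.91-fold higher in mean, and its DZP arrays lay within 0.15 of each other while its Ctrl arrays spanned 1.01. *Gpr6* was 7.45, 7.90 and 7.34 in Ctrl and 8.53, 8.68 and 7.96 in DZP (1.77-fold). *Six3* differed by 0.23 and *Ido1* by 0.25, both at low levels.

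The widest differences of means fell on genes whose groups overlapped. *Scn4b* was 7.24, 8.24 and 6.45 in Ctrl amygdala and 9.32, 9.62 and 7.97 in DZP (difference 1.66, 3.16-fold), with DZP replicate 3 below Ctrl replicate 2. *Drd2* was 10.45, 10.70 and 8.82 in Ctrl and 11.67, 12.10 and 10.18 in DZP (1.32, 2.51-fold), with DZP replicate 3 below 2 Ctrl arrays. *Rgs9* was 9.49, 10.41 and 8.92 in Ctrl and 11.19, 11.59 and 9.82 in DZP (1.26, 2.40-fold). In all 3 genes Ctrl replicate 3 was lowest and DZP replicate 2 highest. *Pde10a* was 10.96, 11.66 and 10.61 in Ctrl and 12.46, 12.66 and 10.93 in DZP (0.94), and here too DZP replicate 3 lay among the Ctrl arrays. *Ppp1r1b* was 8.05, 8.75 and 7.78 in Ctrl and 9.38, 9.26 and 8.39 in DZP (0.82). *Rxrg* was the gene with a lower mean in DZP, at 8.84, 8.87 and 8.20 in Ctrl and 8.66, 8.61 and 8.43 in DZP. Its difference of -0.07 turned to 0.03 without Ctrl replicate 1 and to 0.04 without Ctrl replicate 2.

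**Figure D3:**
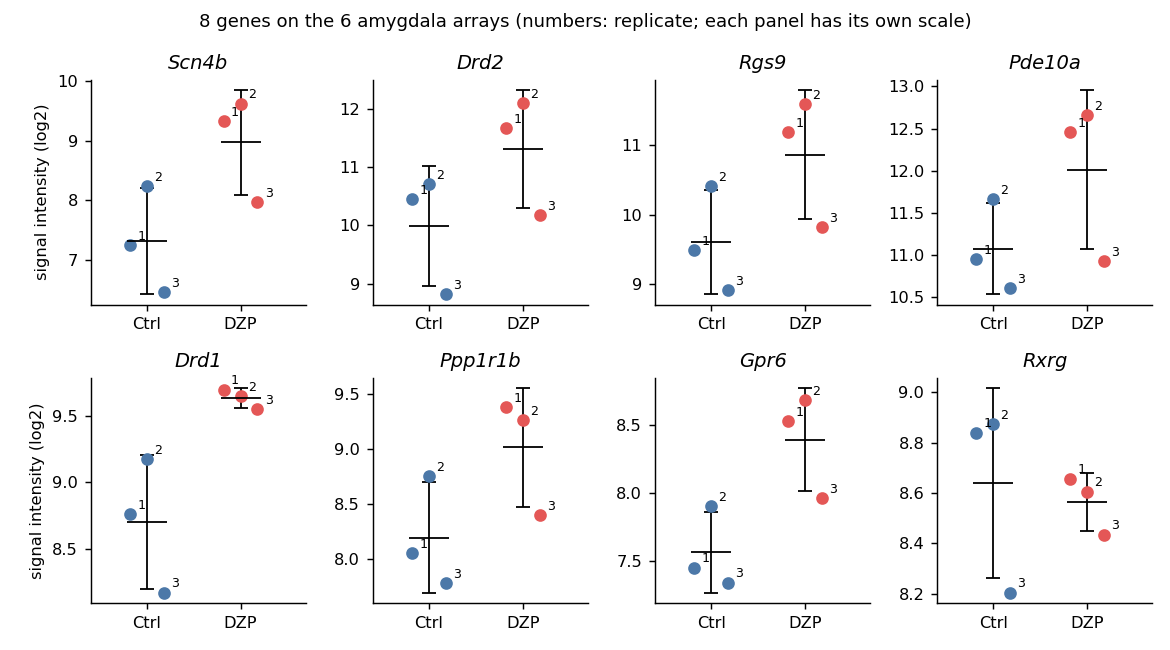
Signal intensity (log2) of 8 genes on the 6 amygdala arrays, each panel on its own scale; points are arrays numbered by replicate, lines group means and bars SD (n = 3). Ctrl replicate 3 was the lowest array in each panel, and DZP replicate 3 the lowest of the DZP arrays.

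By role, the receptors differed by 0.35 to 1.32, the signaling genes by 0.40 to 1.26, the channel and cytoskeletal genes by 0.25 to 1.66, the transcription factor genes by -0.07 to 0.61 and the remaining genes by 0.25 to 0.65. Leaving out 1 amygdala array at a time moved the median difference between 0.38 and 0.69, and the difference of the means over genes between 0.42 and 0.81. Without Ctrl replicate 3, the array with choroid plexus transcripts, the latter was 0.42, and *Drd2* differed by 0.74, *Scn4b* by 1.23 and *Pde7b* by 0.09 rather than 0.40.

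Most of the 29 genes shared the lowest and the highest of the 6 amygdala arrays, while the order between these differed among genes. Ctrl replicate 3 was the lowest array for 23 genes, against 15.2% of all clusters, and DZP replicate 2 the highest for 21, against 17.2%. Each gene was correlated over the 6 arrays with the mean of the other 28: the median r was 0.964, and 20 genes exceeded 0.9. *Rxrg* had the lowest value, 0.396. Over the 6 cortex arrays the median r was 0.133 and over the 6 hippocampus arrays -0.116. These values describe arrays that share both treatments and, in the amygdala, the choice of genes. The range of a gene over the 6 arrays had a median of 1.05 in amygdala, 0.29 in cortex and 0.29 in hippocampus, and over all clusters in the amygdala of 0.40.

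**Figure D4:**
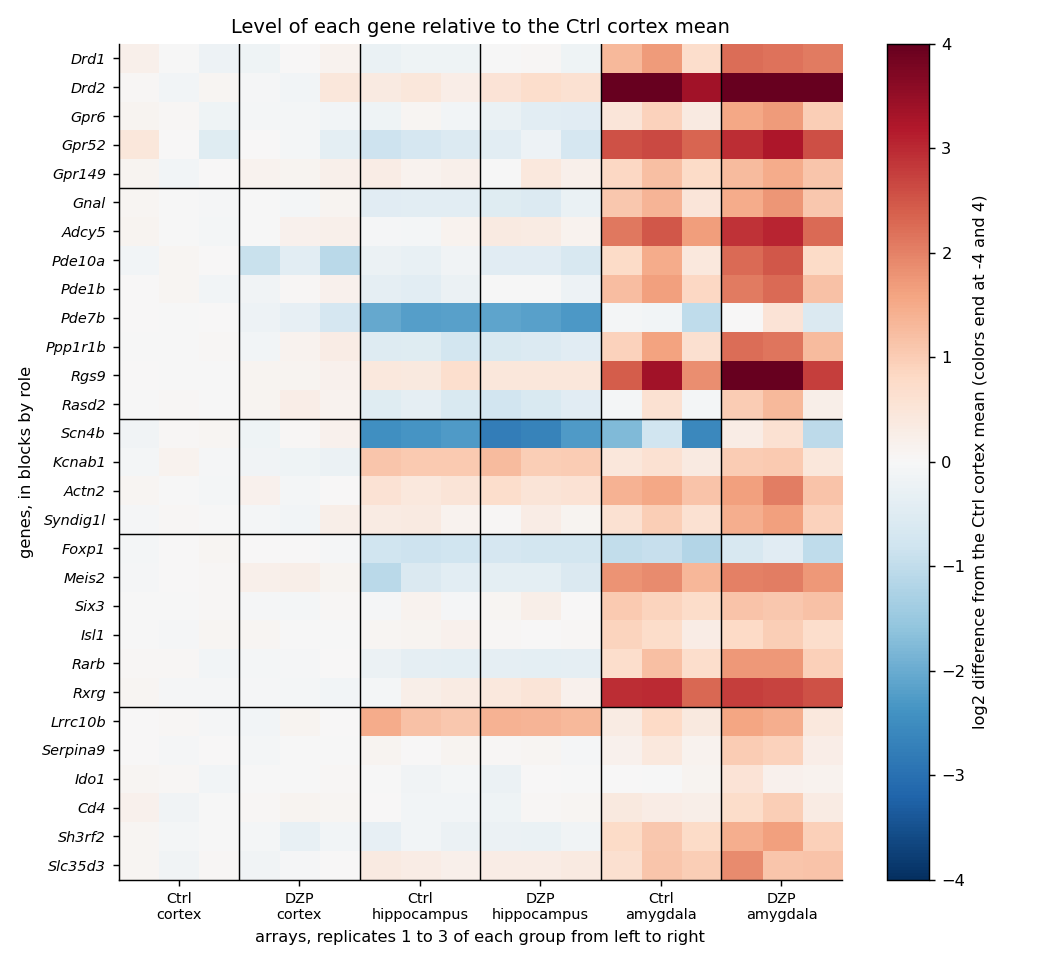
Level of each of the 29 genes on each of the 18 arrays as a log2 difference from the Ctrl cortex mean, in blocks by role; colors end at -4 and 4, which *Drd2* and *Rgs9* exceed. The amygdala columns are red for most genes, with Ctrl replicate 3 paler than its neighbors, and *Scn4b*, *Pde7b* and *Foxp1* are blue in hippocampus.

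Markers of other cells were read on the same 6 amygdala arrays. Ctrl replicate 3 was lowest for 3 of 3 intercalated cell, 10 of 19 other striatal projection neuron, 4 of 7 interneuron and 3 of 6 central amygdala genes. It was lowest for 3 of 5 dopamine neuron, 2 of 8 thalamus and hypothalamus, and 0 of 6 choroid plexus genes. For the basolateral and medial amygdala, cortical and hippocampal lists it was lowest for 1 gene each. All 6 measured oligodendrocyte genes, *Mbp*, *Mog*, *Mobp*, *Mag*, *Mal* and *Cnp*, were lowest on that array as well. Their mean was between 10.00 and 10.83 in Ctrl and between 10.67 and 11.05 in DZP. Their mean difference was 0.45, and 0.21 without that array. The 6 choroid plexus genes averaged 6.21 to 8.79 in Ctrl, the upper value being replicate 3, and 6.21 to 6.27 in DZP. All 6 central amygdala genes had a lower mean with DZP (median difference -0.19, list means 8.03 to 8.67 in Ctrl and 8.04 to 8.32 in DZP), as did 7 of 8 basolateral and medial amygdala genes (median -0.09, list means 6.81 to 6.93 and 6.55 to 6.83). The 3 intercalated cell genes differed by 0.01 to 0.13, and the 7 measured striatal and basal forebrain interneuron genes by a median of 0.11, with 5 higher (list means 6.10 to 6.34 and 6.24 to 6.31). The 19 other striatal projection neuron genes had a median difference of 0.11, with 12 higher. The 8 thalamus and hypothalamus genes had a median difference of 0.19, with 6 higher. Their list mean differed by 0.18, and by 0.17 without Ctrl replicate 3. The list means of the cortical excitatory neuron, hippocampal field and dopamine neuron genes differed by -0.13, -0.07 and 0.07. Without Ctrl replicate 3 these were -0.07, -0.06 and 0.01. Without Ctrl replicate 3 the difference of the list mean went from 0.06 to -0.09 for the intercalated cells, from -0.23 to -0.41 for the central amygdala, from -0.20 to -0.23 for the basolateral and medial amygdala, from 0.10 to 0.06 for the interneurons, from -0.87 to -0.03 for the choroid plexus and from 0.10 to 0.02 for the other striatal projection neuron genes. The part of these cell populations in the difference was not tested.

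At the exon level the same arrays were read by probe sets for single exon parts and for exon junctions, of which 825 belonged to 28 of the 30 genes and none to *Drd1* or *Adora2a* as the only symbol. In Ctrl amygdala 334 were higher and 81 lower than in cortex (limma over 719071 probe sets, adjusted p below 0.05), against 5.13% and 5.44% of all probe sets. Compared with hippocampus, 359 were higher and 21 lower, against 3.81% and 3.28%. Hippocampus exceeded cortex for 43 and fell below it for 138, against 4.07% and 4.96%. With DZP, 0 of the 825 passed in cortex, against 0% and 0% of probe sets, 0 in hippocampus, against 0.0124% and 0.0409%, and 0 for the difference between these regions, against 0% and 0%. In amygdala, the comparison on which the list was selected, 683 of 825 had a higher mean with DZP and the median difference was 0.43. This was not tested, and the share over all probe sets was not computed.

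Where probe sets of 1 gene passed, they mostly went in 1 direction, but in some genes few passed. Between Ctrl amygdala and cortex these were 8 of 45 for *Kcnab1*, 2 of 21 for *Ido1* and 0 of 8 for *Rasd2*. Of all probe sets, 5.13% were higher and 5.44% lower in that comparison. Of 15 probe sets of *Drd2*, 13 were higher in Ctrl amygdala than in cortex and 0 were lower. For *Adcy5* 43 of 47 were higher and 1 was lower, for *Rgs9* 35 of 51 were higher and 1 was lower, and for *Foxp1* 56 of 107 were lower and 0 were higher. *Scn4b* was lower for 10 of 13, and *Pde7b* was lower in hippocampus than in cortex for 29 of 42. In *Six3* 8 of 18 probe sets were higher and 0 were lower, and 4 of the 8 differed by more than 3 on the log2 scale. The widest difference was that of PSR1700011766.mm.1, which was 4.70, 4.70 and 5.23 in Ctrl cortex and 11.92, 12.09 and 11.10 in Ctrl amygdala, a difference of 6.82 (adjusted p = 1.07e-08). Whether its cortex values lay above background was not analysed here. The whole cluster differed by 0.90.

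*Pde10a* did not move as 1 unit. Of its 78 probe sets, 21 were higher and 7 were lower in Ctrl amygdala than in cortex. PSR1700000800.mm.1, from the group that was higher, was 12.15, 12.16 and 11.89 in Ctrl cortex and 13.32, 13.85 and 12.86 in Ctrl amygdala (difference 1.28, adjusted p = 0.0201). PSR1700000770.mm.1, from the group that was lower, was 11.19, 11.91 and 11.79 in Ctrl cortex and 9.21, 9.41 and 10.13 in Ctrl amygdala (difference -2.05, adjusted p = 0.000544). The regions did not overlap for either probe set and stood in opposite order. In DZP amygdala the first was 15.28, 15.24 and 13.89 and the second 8.20, 8.33 and 8.49, so the first was higher and the second lower than on every Ctrl amygdala array. In this contrast, on which the list was selected, 7 of the 78 probe sets lay above and 6 below without overlap. The share over all probe sets is not given here, and over all gene-level clusters it was 8.16% and 4.91%. In DZP cortex the first was 11.20, 11.88 and 10.91 and the second 10.15, 10.60 and 10.36, both below every Ctrl cortex array, with differences of -0.73 and -1.26 (adjusted p = 0.862 and 0.688). In cortex 63 of the 78 probe sets had a lower mean with DZP, and in amygdala 15 had. Which transcript each probe set reads was not analysed here, and the probes were not placed relative to the starts printed above.

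**Figure D5:**
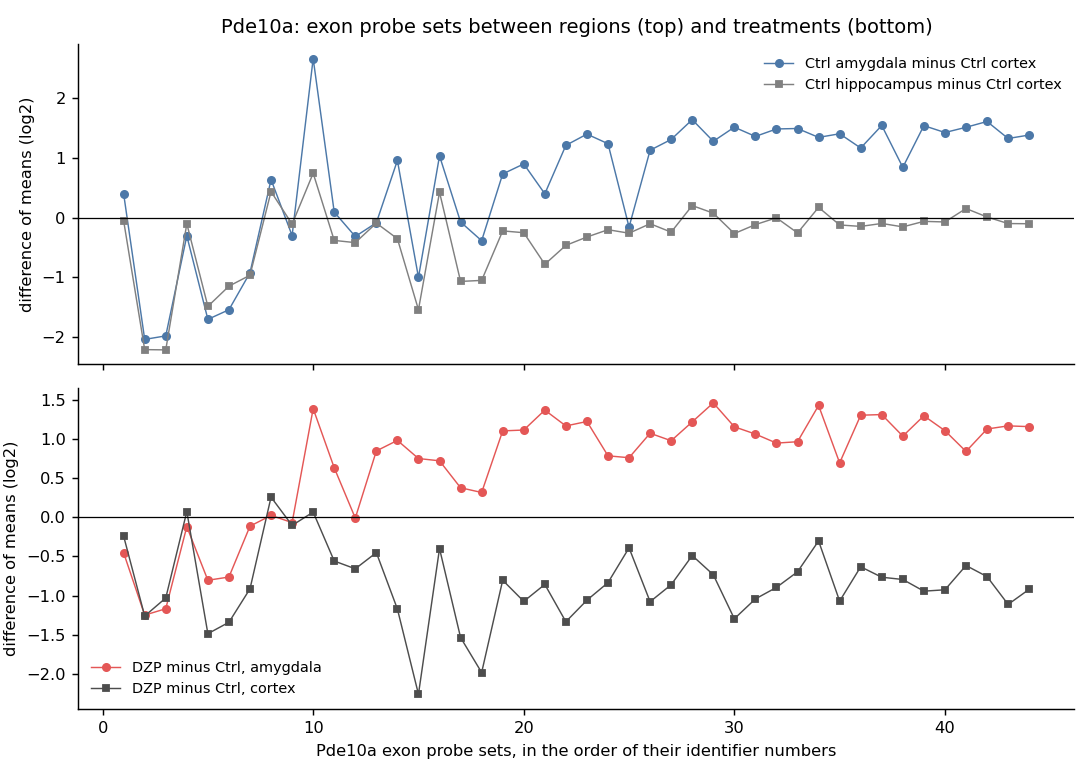
Differences of group means (log2) for the 44 exon probe sets of *Pde10a*, in the order of their identifier numbers, between regions of Ctrl mice (top) and between DZP and Ctrl (bottom). The 5 exon probe sets that were lower in Ctrl amygdala than cortex, near the left, lie below 0 in all 4 comparisons, while most at the right lie above 0 for amygdala against cortex and for DZP in amygdala and below 0 for DZP in cortex.

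The genes outside the list whose levels followed its mean most closely were named by Pearson's r over clusters at or above the median level, as a description over arrays that fall into regions. Over the 18 arrays these were *Tac1* (r = 0.976), *Spock3* (0.975), *Gpr83* (0.972), *Rasgrp2* (0.970), *Cyld* (0.967), *G630016G05Rik* (0.961), *Prkch* (0.961), *Penk* (0.960), *Ebf1* (0.959) and *Meis1* (0.958). *Tac1* and *Penk* encode the peptides of the direct and indirect pathways, *Rasgrp2* an activator of small GTPases, and *Gpr83* an orphan receptor. *Tac1* was 9.04, 9.54 and 8.50 in Ctrl amygdala and 9.41, 9.86 and 8.95 in DZP, with replicate 3 lowest in both groups. Over the 12 cortex and hippocampus arrays, where the mean spanned only 7.27 to 7.50, the closest were other genes, led by *Ppp1r3d* (r = 0.980), *Negr1* (0.976) and *Dbpht2* (0.974).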

How the data were processed

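Gene-level and exon-level values of 18 arrays were used. The deposited values are log2 signal intensities that the authors made with Affymetrix Expression Console 1.4.1, per the submitters' processing notes; the summarisation, normalization and genome build are not given in the sources used here, and the number of arrays limits the precision. Control probe sets (6732 at the gene level, 6607 at the exon level) were left out. With limma 3.58.1 in R 4.3.3, 1 mean was fitted for each of 6 groups, and p-values were adjusted by Benjamini-Hochberg over all 65956 clusters, and at the exon level over all 719071 probe sets; an adjusted p below 0.05 was the threshold. The steps were tested on simulated data. Named genes were taken from the list's members, the marker lists, and the 10 genes most correlated with the members' mean over 18 arrays or over the 12 cortex and hippocampus arrays. The members and marker lists were chosen with earlier results of these data known, and the direct repeat was searched after the sequences were seen. Replicate numbers were checked as pairs: deviations of same-numbered arrays of 1 treatment correlated between -0.16 and 0.42 over 18 pairs of regions, so the numbers were not taken as mice. Nothing says which arrays share a mouse, and p-values over regions treat the arrays as independent. Alternatives were other samples in the fit, a filter on dim clusters, centring, array weights, blocks, the criteria of the study's methods and the omission of each array.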

Additional observations from a re-analysis of the deposited data

Results flagged for a closer look

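*Gpr6* had differences of opposite sign with DZP in hippocampus and amygdala. Every DZP hippocampus array lay below every Ctrl hippocampus array (difference -0.30), but the difference did not pass (limma, adjusted p = 0.513), and 9.69% of all clusters were separated in this way. Every DZP amygdala array lay above every Ctrl amygdala array (difference 0.82), as for 8.16% of clusters, in the comparison on which the list was selected. The difference between the regions was not tested.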

How the results depend on the processing

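Direction was followed for the gene-level differences that passed and for *Pde10a* with DZP in cortex, and none of these reversed. For the other tested differences it was not followed. Among the untested amygdala differences, that of *Rxrg* (-0.07) turned to 0.03 and 0.04 without Ctrl amygdala replicate 1 or 2. That of the intercalated cell list (0.06) turned to -0.09 without replicate 3. Fitting only the arrays of the groups compared gave 5 genes higher and 8 lower in Ctrl hippocampus than cortex (3 and 5 in the fit over all groups). With the replicate number as a block, 21 genes were higher and 2 lower in Ctrl amygdala than cortex, 17 higher and 1 lower than in hippocampus, and 5 probe sets were lower than in hippocampus (21 without the block); the numbers are not known to pair arrays. The study's criteria gave 1 gene lower in amygdala than hippocampus and 1 lower with DZP in cortex. Among probe sets at or above the median, 1 was lower with DZP in hippocampus. Without the 5 arrays with choroid plexus transcripts, an alternative chosen after seeing the data, 1 gene was lower in amygdala than cortex and 0 than hippocampus, 6 probe sets were lower in amygdala than hippocampus, and 14 were higher and 83 lower in hippocampus than cortex. The cause of these changes was not tested.

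Leaving out 1 array at a time gave 18 to 23 genes higher and 2 to 2 lower in amygdala than cortex, 17 to 23 higher and 1 to 2 lower than hippocampus, 2 to 3 higher and 4 to 7 lower in hippocampus than cortex, and 0 to 0 with DZP. For probe sets the ranges were 249 to 372 and 59 to 84 (amygdala against cortex), 284 to 382 and 9 to 36 (against hippocampus), and 31 to 44 and 104 to 154 (hippocampus against cortex). The count lower than in hippocampus was 9 to 12 without any 1 Ctrl hippocampus array or without Ctrl amygdala replicate 1 or 3, and 36 without DZP amygdala replicate 3. With DZP in hippocampus they were 0 to 6 higher and 0 to 8 lower, and for the difference between hippocampus and cortex 0 to 1 and 0 to 4, the upper values all without DZP hippocampus replicate 3. The median amygdala difference ranged from 0.38 to 0.69 and that of the mean from 0.42 to 0.81. Taking all clusters of a gene changed nothing, as each measured gene had 1. With 3 arrays a group, small differences could not be resolved.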
